A study of Mus musculus with 4 samples.

Results

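The genes described here encode the scaffold of the heart muscle sarcomere: the Z-disc, the M-band, the titin filament that joins them, and the proteins that bind these structures or turn them over. They were chosen by name. Of 38 names, all had a row in each of the 2 deposited tables of 22552 gene rows, and 37 had at least 1 FPKM in any library (FPKM counts fragments per kilobase of a gene's transcript, scaled per 1000000 fragments). Myotilin (Myot) was the exception, with 0.0817 FPKM in dKO and 0.376 in dHET at P2.5, and 0.0305 FPKM in dKO and 0.0419 in dHET at E15.5. The nearest genes kept were Xirp2 and Trim54, with highest values of 1.08 and 1.29 FPKM.

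Poly-A RNA of whole mouse hearts of strain Sv129 was sequenced in 4 libraries, 1 for each genotype and stage. The dKO mice lack both miR-1 genes, miR-1-1 and miR-1-2, and the controls carry the label dHET, which the labels do not spell out; the study design calls the P2.5 controls littermates, and their column is headed hetero. The stages were postnatal day 2.5 (P2.5, reads of 100 bases from a single end) and embryonic day 15.5 (E15.5, paired reads of 100 bases). The control sample at E15.5 carries the same dHET label, but its column in the table is named WT. The labels do not say whether a library came from 1 heart or from several, nor whether the deletion reached all cells. With 1 library per group there was no replicate check, no test between genotypes was made, and every difference below is between 2 libraries.

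The sarcomere is the contractile unit of striated muscle. Thin filaments of actin are anchored in the Z-disc, where alpha-actinin crosslinks them, and thick filaments of myosin are held in register at the M-band by myomesins. Titin spans from Z-disc to M-band, and many LIM domain, ankyrin repeat and ubiquitin ligase proteins attach to it or shuttle between the sarcomere and the nucleus. Heart and skeletal muscle are rich in miR-1, a microRNA that represses transcripts through short matches to its seed in their 3' UTRs.

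The libraries differed in ways other than genotype. Scaling totals recovered from the spacing of low values were about 49900000 fragments in dKO and 44600000 in dHET at P2.5, and 104000000 in dKO and 86500000 in dHET at E15.5. At P2.5 the dKO library had the X-inactivation transcript Xist at 50.7 FPKM and the Y-linked Ddx3y at 0, and the dHET library had Xist at 0.101 and Ddx3y at 11.7 FPKM, so genotype and sex cannot be told apart at that stage. Both E15.5 libraries expressed Ddx3y (14.8 FPKM in dKO and 15.3 in dHET). Heart muscle markers were present throughout, with 8 of 8 usable ones at or above 1 FPKM in each library. They summed to 29412 FPKM in dKO and 22677 in dHET at P2.5, and to 12260 in dKO and 12920 in dHET at E15.5. Myl2 alone gave 8550 FPKM in dKO and 7059 in dHET at P2.5. With Myh7, usable at P2.5 alone, 9 markers were counted there, and 3 lay below 0. Of these 9, 1 was at least 1.5-fold higher in dKO (Tnnt2) and 1 lower (Pln, 731 FPKM in dKO and 1266 in dHET), against 3.4% and 1.33% of all rows. Skeletal muscle markers, whose cells use many of the same scaffold genes, summed to 3.79 FPKM in dKO and 4.90 in dHET at P2.5, and to 7.14 in dKO and 13.8 in dHET at E15.5, mostly from Tnni2, with 1 of 12 at or above 1 FPKM in each P2.5 library and 2 of 12 in each E15.5 library; the skeletal muscle factor Myod1 was listed at 0 in both P2.5 libraries. In whole hearts, fewer cells of a type and less RNA per cell cannot be told apart.

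Sequence features of the scaffold genes are shown first, because the deleted regulator acts through a short word in 3' UTRs and because heart muscle genes are known to carry binding sites of serum response factor and MEF2 near their starts. In the longest annotated 3' UTR (GENCODE M1 on NCBIM37, the assembly of mm9), the words that pair with the miR-1 seed were ACATTCC and CATTCCA, searched on the sense strand; they overlap in 6 letters and together form the 8-base word ACATTCCA. Of 36 scaffold genes with such a UTR, 3 held either 7-base word (8.33%), against 18.5% of 11695 genes with FPKM of at least 1 in a library. The 8-base word was in 0 of the 36 and in 4.27% of all genes. The scaffold genes' UTRs were shorter, with a median of 799.5 bases against 1206. The 3 sites follow, on the minus strand, with the word in capitals and its coordinates beside the name.
Actn2, chr13:12400490-12400496: aagcattctttACATTCCttcc
Nebl, chr2:17266242-17266248: tctgtgatcatCATTCCAggatgtgtaag
Ankrd23, chr1:36588353-36588359: cccacggccacCATTCCAcacccatccac
These are matches of letters, not measured binding sites. The Actn2 site is in the UTR of a short annotated transcript that ends inside the gene, and the Nebl site lies past the end of the gene as the deposited table gives it, so neither need be part of the transcripts behind the FPKM values. The log2 changes of the 3 carriers were 0.07 at P2.5 and -0.27 at E15.5 for Actn2, -0.23 and 0.05 for Nebl, and -0.39 and 0.10 for Ankrd23. None was above 0.32 at either stage, and the P2.5 change of Ankrd23 was past that size on the lower side. Of all rows, 16.2% were at least 0.32 higher at P2.5 and 3.21% at E15.5, and 3 genes are too few to set against these shares.

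Promoter windows of 300 bases, 250 before and 50 after the start, were available for 32 of the 37 genes (RefSeq, build GRCm38.p6; Murc was matched under its newer symbol). A CArG box, the site of serum response factor, was in windows of 5 of the 32 genes (15.6%), against 1.69% of 8657 genes with FPKM of at least 1 in a library. A MEF2 site was in 6 (18.8%), against 2.38%. Both were searched on either strand, and the genes had 1.34 windows each, against 1.28 for all genes. The examples below are 30 bases on the gene's strand with the motif in capitals and the motif's coordinates; they are shown because they are CArG boxes and MEF2 sites of genes whose levels are described in full or that anchor the Z-disc.
Fhl2 CArG box, chr1:43163983-43163992: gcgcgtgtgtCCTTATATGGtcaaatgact
Ldb3 CArG box, chr14:34588707-34588716: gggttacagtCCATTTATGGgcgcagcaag
Fhl1 CArG box, chrX:56779581-56779590: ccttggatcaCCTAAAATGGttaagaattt
Xirp2 MEF2 site, chr2:67445928-67445937: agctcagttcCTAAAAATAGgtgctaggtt
Mybpc3 MEF2 site, chr2:91118054-91118063: tggaatttgtCTATATTTAGcaggtggcta
Synpo2l MEF2 site, chr14:20668454-20668463: gaaatttgtaCTATAATTAGttctaggagt
By the definition of the motif the CArG boxes share their CC and GG ends, and they differ in the run of A and T between them. The word TATAAA, on the gene's strand, was in 3 of the 32 genes (9.38%, against 5.18% of all genes), and these were Trim63, Murc and Lrrc10. It can overlap a MEF2 site, but none of the 3 held both. The word CATTCC, the core of the muscle CAT element bound by TEAD factors, was in 10 (31.2%, against 14.9%), on either strand. It forms part of the miR-1 words above, which were searched in UTRs and not in promoters.

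The scaffold genes were among the abundant transcripts of these hearts. Their FPKM, which is per transcript length and so can be compared between genes within a library, had medians of 72.6 in dKO and 79.4 in dHET at P2.5, and of 58.8 in dKO and 58.3 in dHET at E15.5. Summed, they made up 2.02% of the dKO and 2.09% of the dHET library's FPKM at P2.5, and 1.54% of the dKO and 1.56% of the dHET library's at E15.5. Cardiac myosin binding protein C (Mybpc3), which sits on the thick filament, ranked first among them in all 4 libraries. The next ranks were shared among alpha-actinin 2 (Actn2), the stress protein Ankrd1, muscle LIM protein (Csrp3), desmin (Des) and, at P2.5 alone, the LIM protein Fhl2. At the low end, Trim54 and Xirp2 were under 1 FPKM in both E15.5 libraries and were not counted there.

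**Figure D1:**
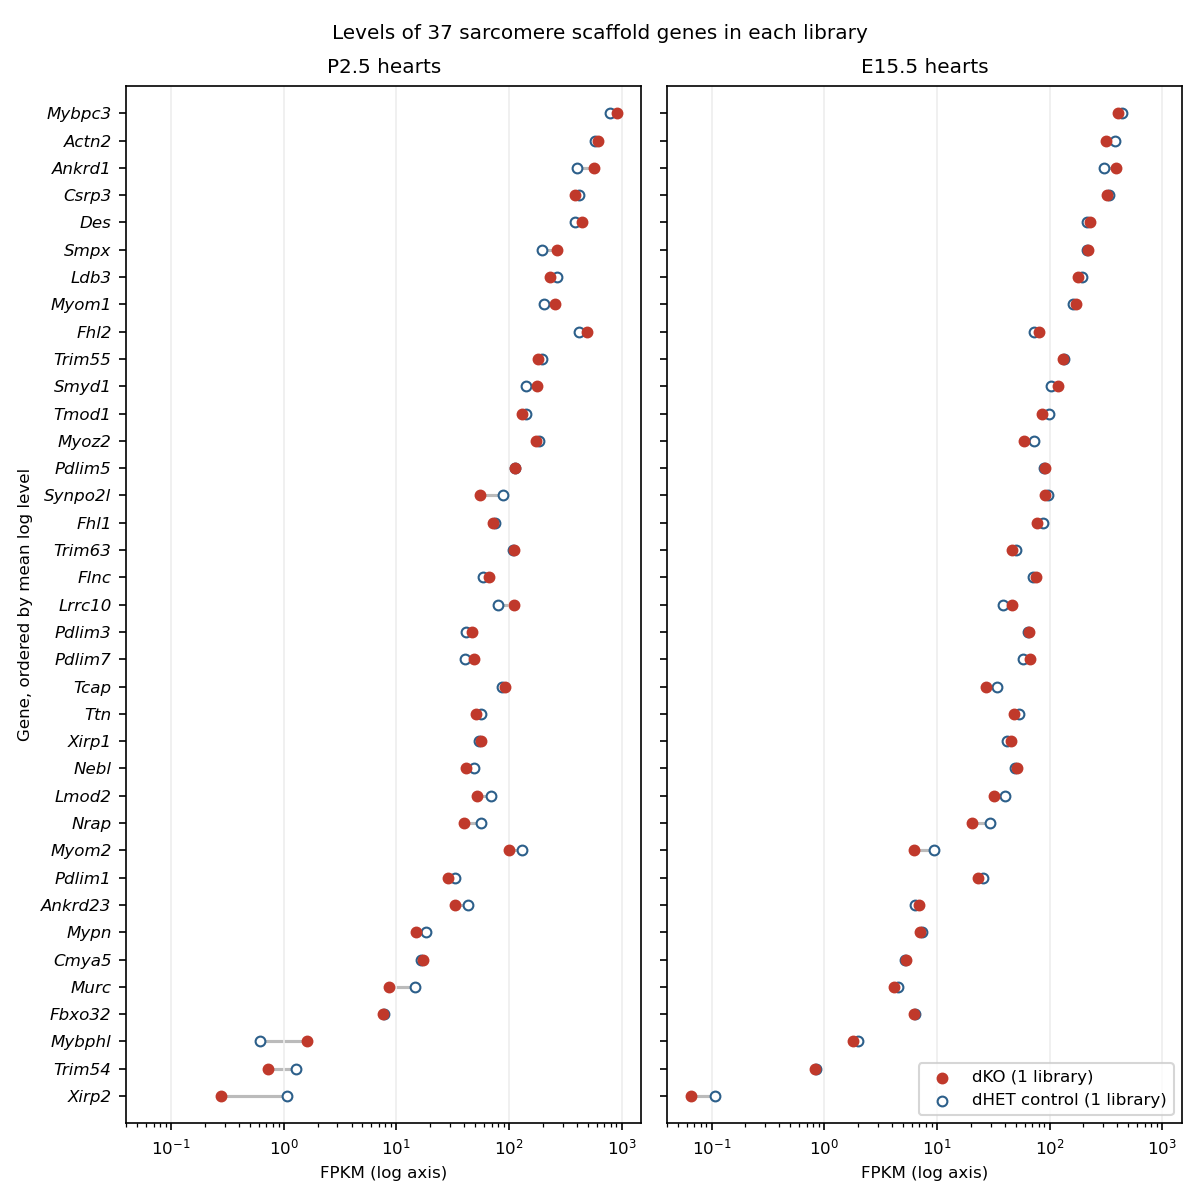
FPKM (log axis) of the 37 scaffold genes at P2.5 (left) and E15.5 (right), ordered by mean level; filled red points are the dKO library and open blue points the dHET library, 1 library each, joined by a grey line. Most pairs nearly coincide. Mybphl, Xirp2, Trim54, Murc and Synpo2l stand apart at P2.5, as Xirp2 does at E15.5. Mybpc3 is at the top of both panels with up to 913 FPKM.

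Changes are log2((FPKM dKO + 1)/(FPKM dHET + 1)), which understates the change of low genes, and a gene was called at a fold of at least 1.5 on that scale. At P2.5, 1 of the 37 scaffold genes was higher in dKO and 3 were lower, against 3.4% of all 11703 counted rows higher and 1.33% lower. Mybphl was the higher one, and Murc, Xirp2 and Synpo2l were the lower ones. The scaffold genes' median change was -0.03, against 0.07 for all rows, and 23 of 37 (62.2%) had a log2 change under 0.32 in size, against 77.0% of all rows. At E15.5, 0 of 35 were higher and 0 lower, against 0.487% and 0.726% of 11709 rows, with changes between -0.52 (Nrap) and 0.35 (Ankrd1). The median there was -0.05, against -0.01 for all rows, and 31 of 35 (88.6%) had one under 0.32 in size, against 94.2%.

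The split at P2.5 depends on scaling. As deposited, 398 rows of all genes were called higher and 156 lower; centring on the median change gave 273 and 235, and setting the FPKM sum of both libraries to 1000000 (rescaling) gave 283 and 593. Rescaling moved the median of all rows by -0.16. Relative to the median of all rows, 14 scaffold genes lay above it and 23 below at P2.5. The signs of Actn2, Tcap, Xirp1, Pdlim5, Trim63 and Cmya5 at P2.5 turned under rescaling, and the 4 called genes kept theirs.

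**Figure D2:**
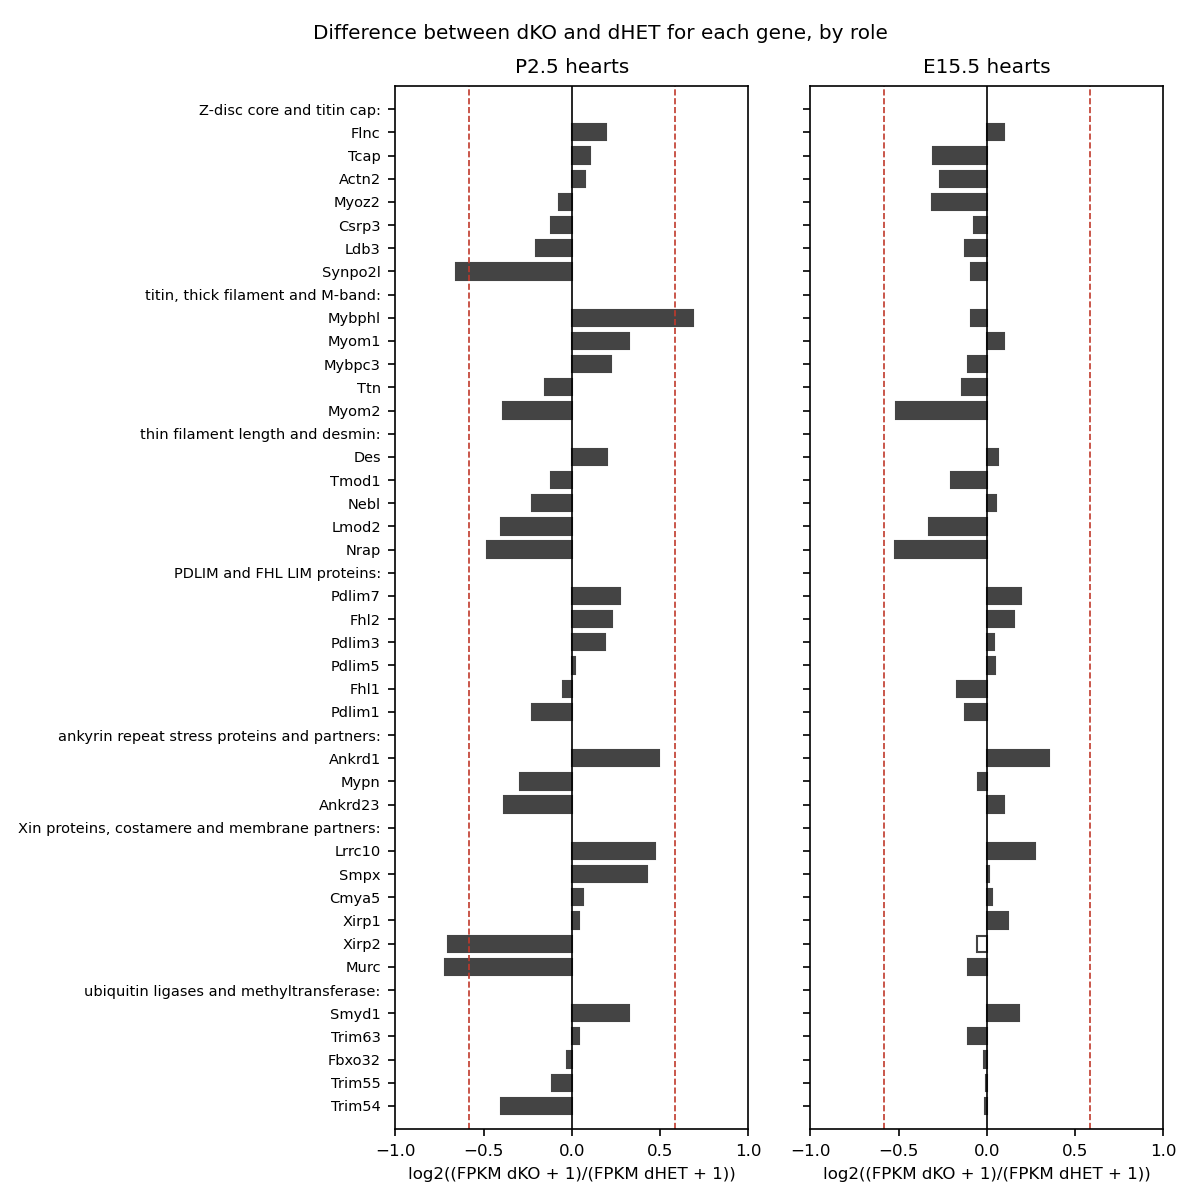
Log2 difference between dKO and dHET for each scaffold gene, grouped by role, at P2.5 (left) and E15.5 (right); dashed lines mark 1.5-fold, open bars are genes under 1 FPKM in both libraries of the stage. At P2.5 Mybphl passes the upper line and Synpo2l, Xirp2 and Murc pass the lower one; at E15.5 all bars lie between the lines.

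At a lower threshold, a log2 change of at least 0.32 in size, 6 of 37 scaffold genes were higher in dKO and 8 lower at P2.5, against 16.2% and 6.76% of all rows. The higher ones were Myom1, Mybphl, Smpx, Ankrd1, Smyd1 and Lrrc10, and the lower ones Myom2, Lmod2, Xirp2, Ankrd23, Synpo2l, Trim54, Murc and Nrap. At E15.5, Ankrd1 was higher by this measure and Myom2, Lmod2 and Nrap were lower, against 3.21% and 2.55% of all rows.

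Of the Z-disc core, the actin crosslinks and the cap of titin, 1 of 7 counted genes was called lower at P2.5, against 1.33% of all rows. It was Synpo2l (chr14:21478640-21487528, mm9), a Z-disc protein related to synaptopodin 2, with 55.7 FPKM in dKO and 88.4 in dHET at P2.5, and 91.4 FPKM in dKO and 97.3 in dHET at E15.5. The P2.5 dKO library held the lowest of the 4 values, across stages that were tabulated separately. Its ratio to dHET at P2.5 was 0.630 (95% counting interval 0.616 to 0.645, from about 12200 fragments in dKO and 17300 in dHET). On the log2 scale its changes were -0.66 at P2.5 and -0.09 at E15.5.

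Alpha-actinin 2 (Actn2, chr13:12361694-12432999), which crosslinks actin in the Z-disc, had 612 FPKM in dKO and 581 in dHET at P2.5, and 315 in dKO and 379 in dHET at E15.5. Csrp3, the muscle LIM protein, had 383 FPKM in dKO and 416 in dHET at P2.5, and 323 in dKO and 340 in dHET at E15.5. Neither had a log2 change of 0.32 in size at either stage, and the P2.5 ratio of Actn2 was 1.05 (1.04 to 1.06). The calsarcin Myoz2, which tethers calcineurin to alpha-actinin, was nearly level at P2.5 (174 FPKM in dKO and 183 in dHET) and had 58.8 in dKO and 73.3 in dHET at E15.5, a change of -0.31. Telethonin (Tcap), which caps titin in the Z-disc, had changes of 0.10 and -0.31. At E15.5, 6 of these 7 genes lay below 0, with a median of -0.12, against 52.4% of all counted rows below 0 and a median of -0.01.

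Among titin, thick filament and M-band genes, Mybphl (chr3:108167829-108186659), a relative of myosin binding protein H known from atria and the conduction system, had 1.60 FPKM in dKO and 0.615 in dHET at P2.5, and 1.81 in dKO and 1.99 in dHET at E15.5. The P2.5 dHET value was the lowest and the other 3 lay close together, across stages that were tabulated separately. The P2.5 ratio was 2.60 (1.76 to 3.94), from about 102 fragments in dKO and 35.0 in dHET, the fewest behind any of the 4 calls. Of the 6 atrial markers on the list, 4 (Nppa, Myl7, Myl4, Sln) were at least 1.5-fold higher in dKO at P2.5, against 3.4% of all rows. Nr2f2 had a change of 0.03 and Bmp10, below 1 FPKM in both libraries, of -0.29. The 6 summed to 1256 FPKM in dKO and 258 in dHET, of which Nppa alone gave 1021 in dKO and 182 in dHET; 5 of 6 were at or above 1 FPKM in each library and 0 were listed at 0. At E15.5 they summed to 2355 FPKM in dKO and 1718 in dHET, of which Nppa alone gave 1297 in dKO and 775 in dHET. Of the 6, 2 were called higher there (Nppa and Sln), against 0.487% of all rows. Myl7 had a change of 0.51, while Myl4, Nr2f2 and Bmp10 had 0.02, -0.05 and -0.04. The atrial markers' part in the Mybphl result was not tested. About 6.90% of the exon bases of Mybphl are also annotated as an antisense RNA gene, and the labels do not state whether the libraries kept strand.

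Myom2 (chr8:15057653-15133419), the M-protein of the M-band, was lower in dKO at both stages, though under 1.5-fold. It had 100.1 FPKM in dKO and 132 in dHET at P2.5, and 6.24 in dKO and 9.34 in dHET at E15.5, for changes of -0.39 and -0.51. Its partner myomesin 1 (Myom1), the M-band crosslinker, had 257 FPKM in dKO and 205 in dHET at P2.5, and 173 in dKO and 162 in dHET at E15.5, for changes of 0.32 and 0.10. The 2 M-band genes thus lay on opposite sides of 0 at both stages. Mybpc3 (chr2:90958301-90976673) had 913 FPKM in dKO and 782 in dHET at P2.5, and 408 in dKO and 440 in dHET at E15.5. Titin (Ttn), with about 272000 fragments in the P2.5 dKO library, had changes of -0.15 and -0.14.

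Of the genes that set thin filament length or tie sarcomeres to desmin, 4 of 5 lay below 0 at P2.5 (median -0.23), against 39.3% of all counted rows, and 3 of 5 at E15.5 (median -0.21), against 52.4%. Nrap (chr19:56362428-56464525), an actin-binding anchor of forming myofibrils and of the intercalated disc, had 40.1 FPKM in dKO and 56.4 in dHET at P2.5, and 20.3 in dKO and 29.6 in dHET at E15.5. The dKO library was the lower one at each stage by similar amounts, with changes of -0.48 and -0.52 and FPKM ratios of 0.712 (0.694 to 0.730) and 0.686 (0.669 to 0.703). Its exons overlap Habp2 on the opposite strand over 4.87% of the exon bases. Leiomodin 2 (Lmod2, chr6:24547771-24555414), which elongates thin filaments, had 52.0 FPKM in dKO and 68.9 in dHET at P2.5, and 32.1 in dKO and 40.6 in dHET at E15.5. These are changes of -0.40 and -0.33. Its counterpart tropomodulin 1 (Tmod1), which caps the pointed end of the filament, had changes of -0.12 and -0.21; it shares 32.6% of its exon bases with Tstd2 on the opposite strand. Desmin (Des, chr1:75356919-75364290), the muscle intermediate filament, had 442 FPKM in dKO and 385 in dHET at P2.5, and 227 in dKO and 217 in dHET at E15.5, on the other side of 0. Of 8 smooth muscle markers, whose cells also make desmin, 7 were counted at P2.5, with 3 called higher in dKO, 0 lower, 2 below 0 and a median change of 0.48. Of all rows there, 3.4% were called higher and 1.33% lower, with a median of 0.07. At E15.5, 8 markers were counted, with 1 called higher, 2 lower, 5 below 0 and a median of -0.18. The shares of all rows there were 0.487% higher and 0.726% lower, with a median of -0.01. The 8 markers summed to 1859 FPKM in dKO and 773 in dHET at P2.5, and to 1434 in dKO and 901 in dHET at E15.5. Of these sums the actin Acta2 alone gave 1692 in dKO and 658 in dHET at P2.5, and 1215 in dKO and 692 in dHET at E15.5. Of the 8, 6 to 8 were at or above 1 FPKM in each library and 0 were listed at 0. Their part in the desmin values was not tested.

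The PDLIM and FHL proteins, LIM domain adaptors of the Z-disc and the M-band, had log2 changes under 0.32 in size at both stages in 6 of 6 cases. Of all counted rows, 77.0% at P2.5 and 94.2% at E15.5 were under that size too. Fhl2 (chr1:43179919-43220806) had 488 FPKM in dKO and 417 in dHET at P2.5, and 80.8 in dKO and 72.7 in dHET at E15.5. Pdlim7 had 49.2 FPKM in dKO and 40.6 in dHET at P2.5, and 66.9 in dKO and 58.3 in dHET at E15.5, for changes of 0.27 and 0.19, the largest of this group at each stage. Fhl1 lies on the X chromosome and had 72.6 FPKM in dKO and 75.2 in dHET at P2.5, and 77.4 in dKO and 87.0 in dHET at E15.5.

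Ankrd1 (chr19:36186455-36194334), the cardiac ankyrin repeat protein, binds titin and moves to the nucleus under mechanical stress. It had 569 FPKM in dKO and 404 in dHET at P2.5, and 388 in dKO and 304 in dHET at E15.5. The dKO library was the higher one at both stages, with changes of 0.49 and 0.35 and FPKM ratios of 1.41 (1.39 to 1.43) and 1.28 (1.26 to 1.29). Its relative Ankrd23 and their shared partner myopalladin (Mypn), which links nebulin proteins to alpha-actinin, lay on the other side at P2.5, with changes of -0.39 and -0.29, and near 0 at E15.5 (0.10 and -0.05). Ankrd23 had 33.1 FPKM in dKO and 43.6 in dHET at P2.5.

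The Xin proteins and their partners at the costamere and membrane held 2 of the 4 calls. Both were lower, among 6 counted genes at P2.5, against 1.33% of all rows lower. Of the 6 genes, 4 lay above 0, against 60.7% of all rows, and the median was 0.05. Xirp2 (chr2:67284059-67364663), an actin-binding protein of the intercalated disc, had 0.278 FPKM in dKO and 1.08 in dHET at P2.5, and 0.0651 in dKO and 0.107 in dHET at E15.5. Its highest value was in the P2.5 dHET library, across stages that were tabulated separately. Its change was -0.70, while the FPKM ratio itself was 0.259 (0.216 to 0.308), from about 166 fragments in dKO and 574 in dHET, which shows how far the added 1 FPKM shrinks the change of a low gene. Its better expressed relative Xirp1 had changes of 0.04 and 0.12.

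Murc (chr4:48676386-48686364), a muscle cavin of the plasma membrane, had 8.60 FPKM in dKO and 14.8 in dHET at P2.5, and 4.13 in dKO and 4.52 in dHET at E15.5. Murc too had its highest value in the P2.5 dHET library. Its P2.5 level was 2.08 times its E15.5 level in dKO and 3.27 times in dHET. Its change was -0.72, and the FPKM ratio was 0.582 (0.533 to 0.633). Lrrc10 (chr10:116482397-116483824), a leucine-rich repeat protein of heart muscle that binds actinin, had 111 FPKM in dKO and 79.4 in dHET at P2.5, and 46.5 in dKO and 38.4 in dHET at E15.5. It was the higher one in dKO at both stages, with changes of 0.47 and 0.27. Smpx, the small muscle protein of the costamere, is on the X chromosome and had 266 FPKM in dKO and 198 in dHET at P2.5, and 218 in dKO and 217 in dHET at E15.5. Its P2.5 change of 0.43 thus stood in the pair that differs in sex, and its change in the E15.5 pair was 0.01. The 382 counted X-linked rows had a P2.5 median of -0.03, against 0.07 for autosomal rows.

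Another role held the ubiquitin ligases of the sarcomere, Trim63, Trim54, Trim55 and Fbxo32, and the methyltransferase Smyd1, which is needed for myosin assembly. Of these 5 genes, 0 were called in the P2.5 pair, where 3.4% of all rows were called higher and 1.33% lower. Trim54 was not counted in the E15.5 pair, and 0 of the other 4 were called. Among all rows of that pair, 0.487% were called higher and 0.726% lower. Lists of 4 or 5 genes are too short to set against such shares. Smyd1 had 178 FPKM in dKO and 142 in dHET at P2.5, and 118 in dKO and 104 in dHET at E15.5. Trim54 had 0.732 FPKM in dKO and 1.29 in dHET at P2.5, from about 52.4 fragments in dKO and 82.4 in dHET, a change of -0.40, and 26.6% of its exon bases are also annotated on the opposite strand. The atrophy-linked ligases Trim63 and Fbxo32 were nearly level, with P2.5 changes of 0.04 and -0.03.

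The scaffold genes not given one by one were nearly level between genotypes. These were the alpha-actinin binder Ldb3 (cypher), the actin crosslinker filamin C (Flnc), the nebulin relative Nebl, the adaptors Pdlim1, Pdlim3 and Pdlim5, the ligase Trim55 and the large titin-associated protein Cmya5 (myospryn). Their changes ran from -0.23 (Nebl) to 0.19 (Flnc) at P2.5 and from -0.12 (Pdlim1) to 0.10 (Flnc) at E15.5.

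The 35 scaffold genes counted at both stages had the same sign in 28 (80.0%), 13 above 0 and 15 below. Among all 11270 genes counted at both, 62.8% had the same sign. Another 5 were above 0 at P2.5 and below at E15.5, and 2 the reverse. At a log2 change of at least 0.32 in size, Ankrd1 was higher at both stages, against 2.05% of all genes, and Myom2, Lmod2 and Nrap were lower at both, against 0.63%; 0 genes passed it in opposite directions. The 2 pairs of libraries have no sample in common.

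The authors' deposited table sets its own error on these differences, between 2 libraries and not between genotypes. Its standard error on a log2 fold change, as implied by the fold change over the test statistic, had a median of 0.31 over the scaffold genes at P2.5 (0.27 to 0.79) and of 0.18 at E15.5 (0.16 to 0.51). By that measure, 24 of 37 scaffold genes at P2.5 and 25 of 35 at E15.5 had a fold change smaller than its own standard error. In the authors' deposited table Xirp2 is the 1 scaffold gene called significant at P2.5, with a log2 fold change of -1.95 and q-value of 0.00206, among 55 genes called. At E15.5 the authors' deposited table calls 0 scaffold genes among 135; the lowest q-values were 0.0673 for Nrap and 0.0892 for Myom2. For the other 3 genes past 1.5-fold at P2.5, the authors' deposited table gives q-values of 0.927 (Mybphl), 0.581 (Murc) and 0.818 (Synpo2l).

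Other genes were taken from 3 lists. The first held 55 names of sarcomere-associated genes, among them cavins of the membrane and a smooth muscle leiomodin, and 52 of the names had a row. Of these, 45 were counted at P2.5, with 6 called higher in dKO and 2 lower and a median change of 0.08. Of all rows at P2.5, 3.4% were called higher and 1.33% lower, with a median of 0.07. The 3 with the largest change were Kbtbd10 (-1.14), a kelch protein that binds Nrap, with 8.83 FPKM in dKO and 20.6 in dHET, the cavin Prkcdbp (1.13), and the LIM protein Csrp2 (1.00). At E15.5, 46 were counted, with 0 higher and 2 lower, against 0.487% and 0.726% of all rows. The largest changes there were those of the smooth muscle leiomodin Lmod1 (-1.24), Kbtbd10 (-0.72, with 4.83 FPKM in dKO and 8.60 in dHET) and the X-linked Itgb1bp2 (0.56). Kbtbd10 and Nrap were thus lower in dKO at both stages. Of 22 costamere genes, 0 were called in either direction at P2.5 (median -0.01), where dysferlin (Dysf) had a difference of 0.53 and Lims2 of 0.45, and 1 was higher at E15.5 (Lims2, 0.79).

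The contractile filament genes, the myosins, actins, troponins and tropomyosin that the scaffold holds, differed more at P2.5. Of 12 counted, 4 were higher in dKO and 0 lower, with a median of 0.42 and 11 above 0. The scaffold genes had 1 of 37 higher and a median of -0.03. Of all rows, 3.4% were higher, 1.33% lower and 60.7% above 0. Rescaling, which moved the median of all rows by -0.16, was not applied to these values. The largest changes on the contractile list were those of the light chains Myl7 (1.92) and Myl4 (1.16), both atrial, and of troponin C (Tnnc1, 0.83). At E15.5 the list had 0 calls and a median of 0.01. Myh6 in the P2.5 and Myh7 in the E15.5 dKO library were listed at 0 under a status for too much data and were not used. This difference between lists rests on 1 pair of libraries per stage and was not tested.

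**Figure D3:**
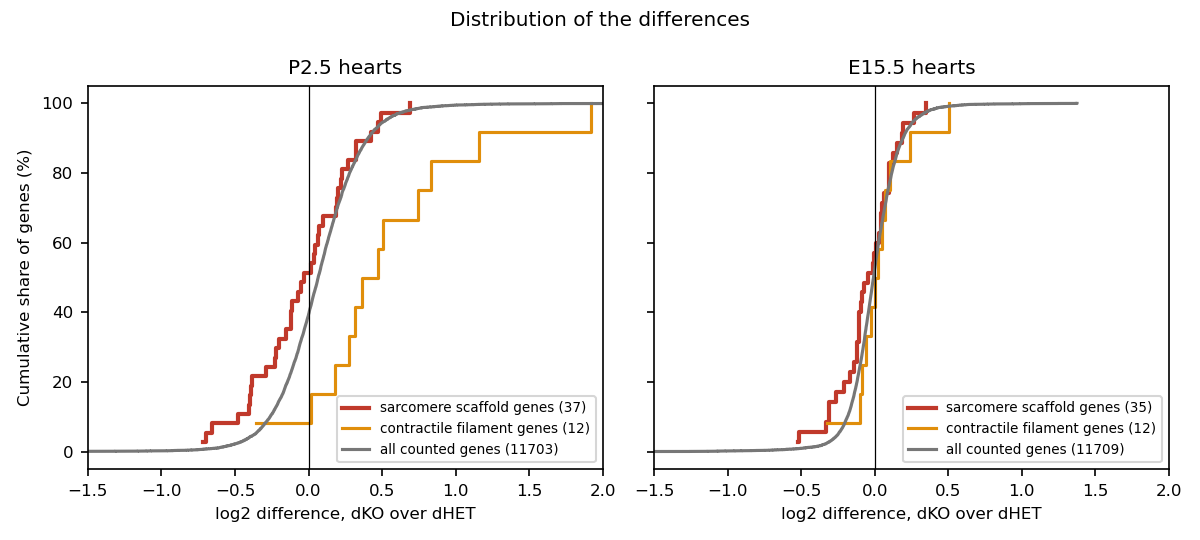
Cumulative share of genes (%) by log2 difference, dKO over dHET, at P2.5 (left) and E15.5 (right), for scaffold genes (red), contractile filament genes (orange) and all counted genes (grey); the most extreme of all genes lie outside the axis. At P2.5 the orange line lies right of the grey one (median 0.42 against 0.07) and the red line slightly left of it (-0.03).

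The stages were tabulated separately, with single reads at P2.5 and paired reads at E15.5, so their levels are set side by side as a description. In dKO hearts the median log2 ratio of P2.5 over E15.5, on the log2(FPKM + 1) scale, was 0.57 over 35 scaffold genes, against -0.01 for all rows, and 9 were at least 2-fold higher at P2.5, against 5.6% of all rows. In dHET hearts it was 0.46 over 37, against -0.08, and 10 were at least 2-fold higher, against 4.78%. Myom2 had the largest ratio in both genotypes, with Fhl2 and Ankrd23 next; Tcap, Myoz2, Cmya5, Trim63 and Lrrc10 also passed 2-fold in both. Lower at P2.5 than at E15.5 in both genotypes were Synpo2l, Pdlim3, Pdlim7, Mybphl, Flnc and Fhl1. Synpo2l had the lowest ratio in dKO (-0.70) and Mybphl the lowest in dHET (-0.89).

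**Figure D4:**
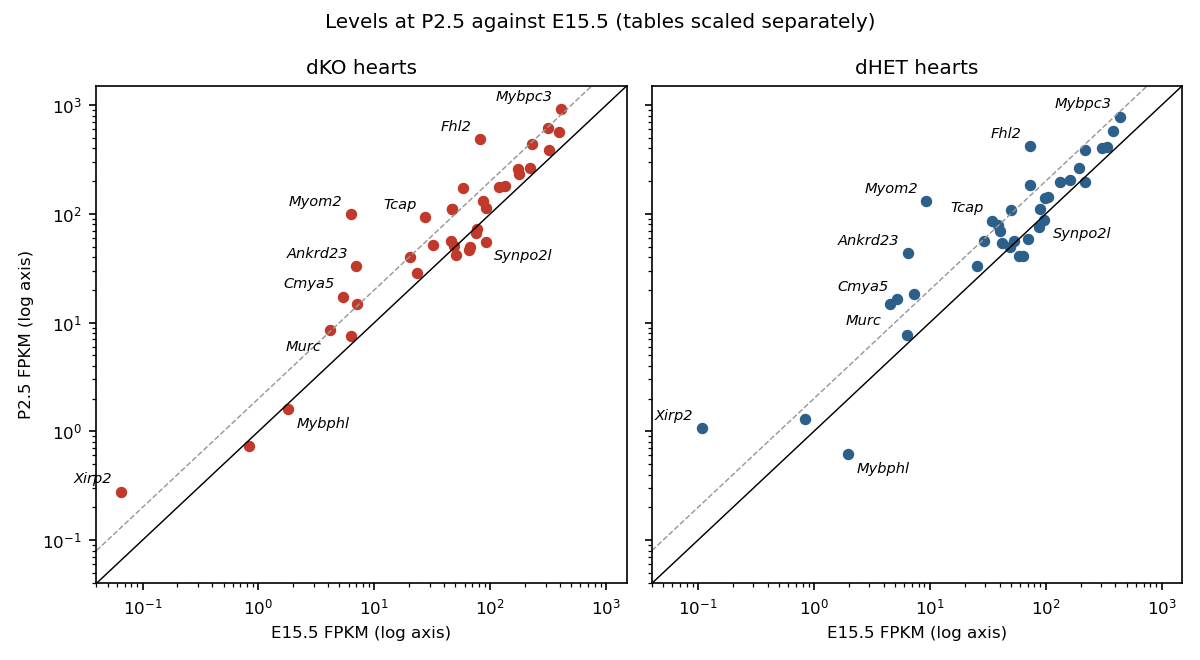
P2.5 FPKM against E15.5 FPKM (both log axes) of the 37 scaffold genes in dKO (left) and dHET (right) hearts; the solid line marks equal values and the dashed line 2-fold higher at P2.5. In both panels Myom2, Fhl2 and Ankrd23 lie far above the dashed line, with dKO Myom2 at 100.1 FPKM at P2.5, against 6.24 at E15.5, and dHET Myom2 at 132 against 9.34; Synpo2l lies under the solid line.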

How the data were processed

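The authors deposited 1 table per stage with FPKM values per gene and library; the submitters' processing notes name TopHat, Bowtie, Cufflinks and mm9, without versions. The deposited tables also hold the authors' log2 fold change, test statistic (a score), p-value, q-value and status; the fold change of the E15.5 table is control over dKO and was turned here. Displaced by commas, 86 rows of each were realigned. Rows with a status other than OK or too few fragments to test were left out (175 at P2.5 and 178 at E15.5). A row was counted at FPKM of at least 1 in either library of its stage; the pseudocount was 1 FPKM. Scaling totals came from low values, of which 75.7% to 79.1% lay within 0.05 of whole fragments; fragment numbers are approximate, and 95% intervals (exact binomial) cover counting error only. Members and lists were chosen with earlier results of these data known. Values in all libraries are given for scaffold genes past 1.5-fold, the 3 highest and 3 lowest changes per stage, the 5 most abundant per library and X-linked ones; at most 2 further examples per role, and the 3 largest changes of each other list. Genes named beyond this, such as those past 1.25-fold, those that turned sign and those with sequence matches, were named after their values were seen. Alternatives were the pseudocount, the filter, scaling, status, fold threshold and leaving out X-linked genes. The calculation was checked on simulated data. Python 3.11.15, pandas 2.3.3, numpy 2.4.6 and scipy 1.17.1 were used. Not given in the sources used here are aligner settings, strandedness and how multiply mapped reads were handled.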

Additional observations from a re-analysis of the deposited data

How the results depend on the processing

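The P2.5 count of scaffold genes at least 1.5-fold higher in dKO was 1, and 0 with a pseudocount of 5 FPKM, with a filter at 10 FPKM or at 2-fold, and 6 at a log2 change of 0.32. Over all rows the count higher was 398, and in the same order 141, 211 (of 5456 rows), 56 and 1900. The count of scaffold genes lower was 3, and 1 with a pseudocount of 5, 5 after rescaling (adding Trim54 and Nrap), 8 at 0.32 and 0 at 2-fold. A filter at 10 FPKM gave 2 and a pseudocount of 0.1 FPKM gave 4. Over all rows the count lower was 156, and in the same order 42, 593, 791, 31, 59 (of 5456 rows) and 306. The P2.5 median moved from -0.03 to -0.20 after rescaling, with all rows. At E15.5, 0.32 gave 1 higher and 3 lower, and the other settings gave 0 and 0. Leaving out the X-linked Smpx and Fhl1 changed no count. Of 132 values of single genes recomputed with another pseudocount, centring or rescaling, 37 moved by more than their counting interval and 0 of the called ones changed sign. No paired analysis was possible because the labels carry no replicate numbers and each group has 1 library; a model of genotype and stage over the 4 libraries, which would leave 1 residual degree of freedom, was not fitted. Depth limits Mybphl, Xirp2 and Trim54, the genes with the fewest fragments, and the spread between hearts is unknown for every gene.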
